A study of Mus musculus with 10 samples.

Results

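The genes described here encode 10 nucleolar proteins that build ribosomes: Npm1, Ncl, Fbl, Nop56, Nop58, Dkc1, Nhp2, Nop10, Gar1 and Gnl3. They were taken by symbol from reads that aligned to an mRNA and whose poly(A) tail estimate passed the quality tag of the tail caller. The 10 members are part of 13272 genes with at least 1 such read. They gave 19867 of 2041443 reads, or 0.973% of the total, and Npm1 alone made up 62.6% of the members' reads. The study asked what LARP1 does to mRNA tails in undifferentiated P19 cells, a mouse embryonal carcinoma line that behaves as a stem cell in culture. All cells were transfected with siRNA, either a scrambled control pool (siCtl) or siRNA against Larp1 (siLarp1), and poly(A) RNA was read by Nanopore direct RNA sequencing, in which each read is 1 RNA molecule with its tail. RNA was taken at 24 h from 3 siCtl and 3 siLarp1 cultures, and at 48 h, after a second transfection, from 2 and 2. At 24 h the siCtl and siLarp1 libraries were barcoded and sequenced in separate pools, so that pool and siRNA cannot be told apart at that time, while at 48 h all 4 libraries shared a pool.

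The nucleolus is where RNA polymerase I makes the precursor of the ribosomal RNAs and where that precursor is cut, modified and folded with ribosomal proteins. Small nucleolar RNAs guide the modification in 2 kinds of particle. In box C/D particles Fbl is the methyltransferase, held on the RNA by the paired scaffold proteins Nop56 and Nop58. In H/ACA particles Dkc1 is the pseudouridine synthase and Nhp2, Nop10 and Gar1 complete the core. Npm1 (nucleophosmin) and Ncl (nucleolin) are abundant nucleolar phosphoproteins that bind RNA and histones, and Gnl3 (nucleostemin) is a nucleolar GTPase abundant in stem cells. LARP1 binds the cap and the terminal oligopyrimidine (TOP) tract, a run of C and T that begins the mRNAs of ribosomal proteins and of some other translation factors, and it also contacts the poly(A) tail and its binding protein.

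The first bases of the mRNAs are shown because they bear on that tract. For each member the 30 bases that lie just before the most common start of its reads were taken from GRCm38, since the last bases at the 5′ end of an RNA are not read by the pore. The windows of the 5 members whose reads began within 15 nt of 1 position in at least 30% of cases are given first, then those of Ncl, Dkc1 and Gar1, where 15.9%, 19.6% and 16.4% of reads did so. All of them lie in exon 1, and for Nop56 only 27 bases precede the start. The longest run of C or T is in capitals.
Npm1: ggagagcccgcgTCCTTTCCTTggcgtgat
Nhp2: gatgtcggaggcggcggccgcgtggTTCCT
Nop10: cgcacgcgattgaagcggcgcaCTCggagt
Nop56: agagcgcgCTagccgcattgcgagctg
Gnl3: gacgttgaaccgcagTTCCagttcgcacgt
Ncl: aggctcagTCTTTTgcctcagacgctagct
Dkc1: ggagtctacagTTCTTagtttgtggcggct
Gar1: gcgCCgggctaggctggagacgcacgtggc

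The Npm1 window (chr11:33163065-33163094, minus strand) held a run of 10 pyrimidines that began 18 nt before the read start. Runs of 6 in Ncl (chr1:86359354-86359383, minus strand), 5 in Dkc1 (chrX:75096053-75096082) and in Nhp2 (chr11:51619758-51619787), 4 in Gnl3 (chr14:31019004-31019033, minus strand), 3 in Nop10 (chr2:112261948-112261977) and 2 in Nop56 (chr2:130274430-130274456) and in Gar1 (chr3:129831121-129831150, minus strand) were shorter. A run of at least 8 C or T, searched on the transcribed strand, was present in 1 of the 5 members with the sharper starts (Npm1) and in 194 of the 1117 transcripts with as sharp a start, or 17.4%. A match is a property of these letters and does not show where transcription began. Nop58 reads began at the first annotated base, which leaves no window. For Fbl no start stood out, since the most common one held 12 of 888 reads, and its window, which lies in exon 2, is not shown. Of the Fbl reads 13.6% covered the whole coding sequence, against 95.1% for Nop10 and 82.6% for Nhp2.

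Sequencing depth was 112676 to 423247 kept reads a library, and at 24 h every siLarp1 library (119830 to 157012) was shallower than every siCtl library (289635 to 423247). Larp1 itself was read at 76.0 to 85.1 RPM (reads of a gene per 1000000 kept reads of its library) in siCtl and 19.1 to 44.9 in siLarp1 at 24 h, and at 123 to 169 and 18.5 to 24.9 at 48 h, without overlap at either time. Its ratio of siLarp1 to siCtl was 0.261 over both times (limma, log2 -1.94 ± 0.36 SE, adjusted p = 0.00108), and 0.399 and 0.170 at 24 and 48 h alone, where the adjusted p was 0.63 and 0.0868 with 147 Larp1 reads in all. The embryonal carcinoma gene Pou5f1 was read in all 10 libraries (2278 to 3029 RPM), as were Sox2, Nanog, Lin28a, Utf1 and Tdgf1, whereas Dppa5a had reads in 5. Of 5 neuronal genes, Neurod1 had no read, Map2 and Dcx were read in 4 and 5 libraries, and Stmn2 led the list. The neuronal sum was 191 to 366 RPM over the 10 libraries, with overlapping groups, and the embryonal carcinoma sum was higher in siLarp1 (4080 and 4099) than in siCtl (3487 and 3852) at 48 h; its part in the results was not tested.

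Npm1 fell in siLarp1 cells, and it was the 1 member whose reads passed the test. At 24 h Npm1 was read at 6422, 6887 and 6015 RPM in siCtl libraries 19, 21 and 22, and at 5241, 5624 and 5821 in siLarp1 libraries 19, 21 and 22. At 48 h the siCtl libraries 24 and 25 gave 5937 and 6320, and the siLarp1 libraries 5598 and 5435. Every siLarp1 library was thus below every siCtl library of its own time, and the siCtl values of the 2 times overlapped. Over both times Npm1 fell by 11.8% (ratio 0.882, 95% interval 0.833 to 0.933, log2 -0.18 ± 0.04 SE, limma, adjusted p = 0.0283 over 5857 genes). Of those genes 0.154% passed the test, and 0.0854% passed with a lower value in siLarp1. With the libraries not paired by their numbers, the ratio was 0.869 at 24 h (adjusted p = 0.134) and 0.895 at 48 h (adjusted p = 0.945), and the log2 difference between the times was 0.04 ± 0.08 (adjusted p = 0.985). No member passed for that difference between times, as for 0% of genes.

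This call rested on most of the libraries. The log2 difference stayed negative without any 1 library, but the adjusted p rose past 0.05 without siCtl library 19 (0.0812), 21 (0.072), 24 (0.0813) or 25 (0.652), or siLarp1 library 19 (0.294), 21 (0.074), 24 (0.319) or 25 (0.221), and also with a mapping quality of at least 20 (0.151) or a barcode confidence of at least 0.9 (0.296). Pseudogene copies of Npm1 share its sequence, and 91.9% of its reads had a mapping quality of at least 20. In a bulk library, fewer molecules in each cell and fewer cells with them cannot be told apart.

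**Figure D1:**
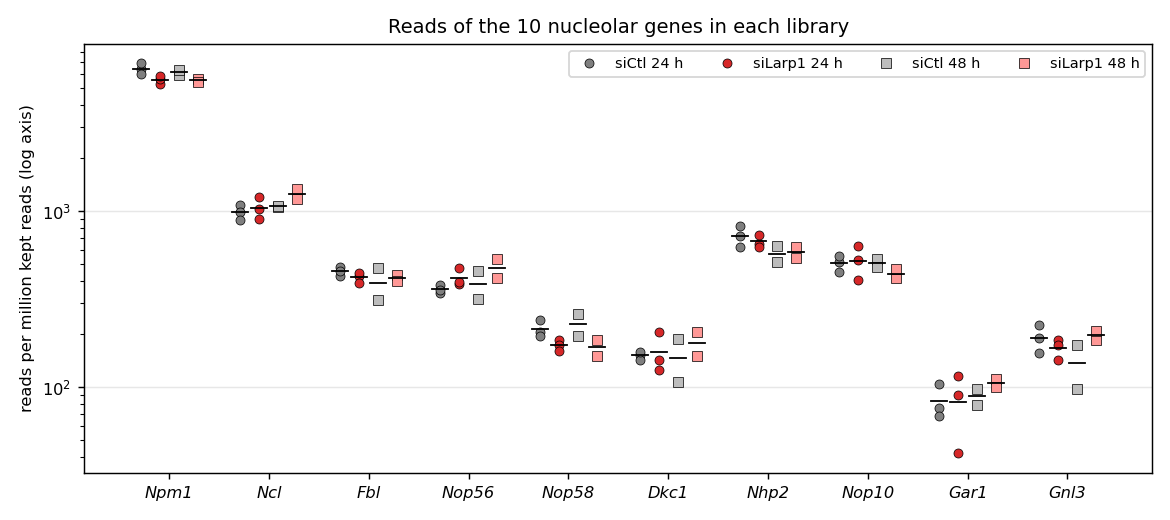
RPM (log axis) of the 10 genes in each of the 10 libraries, with circles for 24 h, squares for 48 h, grey for siCtl, red for siLarp1 and a bar for the group mean. Npm1 lies between 5241 and 6887 in every library and Gar1 between 41.7 and 115, and only for Npm1 and Nop58 do all siLarp1 points lie below all siCtl points.

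The level of the mRNAs, in RPM, spanned Npm1 at the top to Gar1 at the bottom, and since a read is 1 molecule these levels were not divided by length. They count only reads that passed the quality tag, a smaller part in Ncl (2115 of 3113) than in Nhp2 (1359 of 1576). Whether length or the tag changed the order was not tested. Npm1 (mean 5930 ± 500 SD over the 10 libraries) ranked 12 of 13272 genes. Ncl (1068 ± 134) ranked 147 and overlapped with neither neighbour. Nhp2 (647 ± 91.3) and Nop10 (496 ± 68.8), both of the H/ACA core, came next and overlapped, and Fbl (422 ± 48.5) and Nop56 (403 ± 65.8) could not be ordered, with ranges of 311 to 480 and 313 to 531. The least read were Nop58 (194 ± 33.3), Gnl3 (173 ± 35.3), Dkc1 (157 ± 32.2) and Gar1 (88.0 ± 22.3), each overlapping with the next. The catalytic subunits Fbl and Dkc1 had 888 and 317 reads, and within the H/ACA core the reads ran from 1359 for Nhp2 to 175 for Gar1.

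Among the other phosphoproteins and the box C/D proteins no difference in reads passed the test. Ncl was read at 1074, 991 and 884 RPM in siCtl and 1018, 1197 and 904 in siLarp1 at 24 h, and at 1056 and 1069 against 1327 and 1162 at 48 h. The Ncl groups overlapped at 24 h and not at 48 h, and the ratio over both times had a log2 of 0.16 ± 0.09 (limma, adjusted p = 0.825). The scaffold proteins Nop56 and Nop58, which sit in the same particle, had differences of opposite sign. Nop56 was read at 380, 340 and 354 in siCtl and 384, 471 and 395 in siLarp1 at 24 h, and at 453 and 313 against 414 and 531 at 48 h, so that the groups were narrowly apart at 24 h and overlapped at 48 h. Its log2 difference over both times was 0.28 ± 0.13 (limma, adjusted p = 0.767). Nop58 was read at 204, 238 and 194 in siCtl and 184, 172 and 159 in siLarp1 at 24 h, and at 195 and 258 against 185 and 149 at 48 h, lower in every siLarp1 library. Its log2 difference was -0.36 ± 0.18 (limma, adjusted p = 0.798), on 409 reads. Fbl stayed at 389 to 480 in all 24-h libraries, and its 48-h groups overlapped.

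The H/ACA core and Gnl3 showed no called difference either, and their intervals were wide. For Nhp2, the 3 siCtl and 3 siLarp1 libraries of 24 h covered 622 to 818 and 624 to 733 RPM, and the log2 difference over both times was -0.01 (95% interval -0.23 to 0.21). Nop10 covered 447 to 553 and 404 to 631 at 24 h, with a log2 difference over both times of -0.08 (-0.32 to 0.16). The interval was -0.14 to 0.63 for Dkc1, -0.32 to 0.66 for Gar1 and -0.22 to 0.53 for Gnl3. Those of Gar1 and Gnl3, like those of Nhp2 and Nop10, include a fall of the size seen in Npm1, and that of Dkc1 does not. In siCtl at 48 h Gnl3 was at 97.6 and 174, in siLarp1 at 185 and 207.

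Counted over the 10 genes, 5 lay above and 5 below 0 at 24 h and over both times, and 7 and 3 at 48 h, where the median log2 difference was 0.15 against 0.05 over all genes. With limma 0 members passed at 24 h and 0 at 48 h, where 0% and 0.0341% of all genes passed, and 1 member (Npm1) had an unadjusted p under 0.05 at each time, as did 5.84% and 4.93% of all genes. Over both times 3 members had such a p (Npm1, Nop56 and Nop58), as did 6.18% of all genes. Groups did not overlap for 3 members at 24 h (Npm1, Nop56 and Nop58) and for 6 at 48 h, where 11.1% and 33.2% of all genes did not. An exact permutation test of such a separation gives p = 0.1 at 24 h and 0.333 at 48 h, the smallest that 3 against 3 and 2 against 2 libraries allow.

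**Figure D2:**
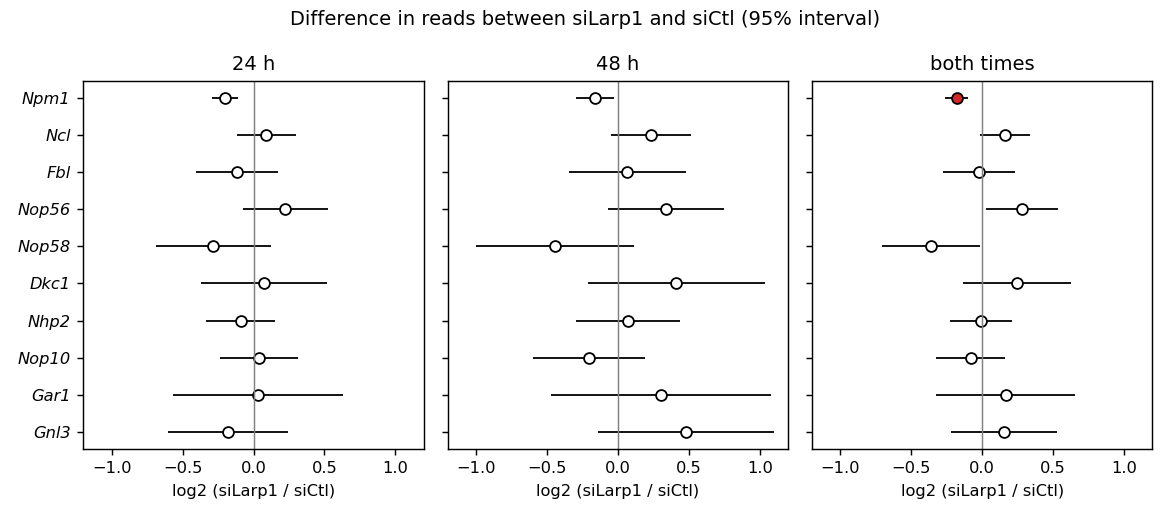
Log2 ratio of reads in siLarp1 to siCtl for each gene at 24 h, at 48 h and over both times, with the 95% interval of the limma fit as a line and a filled point where the adjusted p is under 0.05. Only Npm1 over both times (log2 -0.18) is filled, and its interval is the narrowest.

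Tails shorter than 30 nt, the class in which no binding protein is thought to be left, were not called for any member. In Npm1, the member with the most reads, the share of such reads was 4.95%, 5.02% and 4.24% in siCtl and 4.78%, 6.52% and 3.83% in siLarp1 at 24 h, with 95% Wilson intervals that reached from 2.77% to 8.51% (counting error only). It was 6.28% and 6.20% in siCtl and 8.82% and 6.72% in siLarp1 at 48 h. The groups overlapped at 24 h and lay apart at 48 h by less than the spread between the siLarp1 libraries. The log2 odds ratio was 0.08 ± 0.17 at 24 h, 0.38 ± 0.20 at 48 h and 0.23 ± 0.13 over both (quasi-binomial model moderated with limma, adjusted p = 0.95, 0.703 and 0.623).

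Counts behind the other members were small. Ncl had 41 short-tailed of 1026 reads in siCtl and 14 of 424 in siLarp1 at 24 h, and 14 of 310 and 17 of 355 at 48 h. Nop58 had 17 of 223 and 4 of 70 at 24 h, and 5 of 68 and 9 of 48 at 48 h, or 18.8% in siLarp1 (Wilson interval 10.2% to 31.9%). That siLarp1 share came from 7 of 30 reads in library 24 and 2 of 18 in library 25. Nhp2 had 1 of 162 in siCtl and 7 of 166 in siLarp1 at 48 h (log2 odds 2.83 ± 1.61, adjusted p = 0.645). Dkc1 had 0 of 40 reads in siCtl at 48 h, which allows a share of up to 7.5%, and 5 of 51 in siLarp1, and Gar1 had 0 of 25, which allows up to 12%, and 2 of 30. No log2 odds ratio can be given for these last genes at 48 h. Nop10 had 1 of 536 and 3 of 216 at 24 h, and 2 of 146 and 1 of 123 at 48 h.

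Over the 10 members, 5 had a share above siCtl and 5 below it at 24 h, with a median log2 odds ratio of 0.03 beside 0.43 for all 2611 genes tested. At 48 h 6 lay above, 2 below and 2 had no estimate, with a median of 0.56 beside 0.21. The quasi-binomial model called 0 members at 24 h, 0 at 48 h and 0 over both, where it called 1.07%, 0.421% and 1.84% of all genes, and limma on the log2 odds also called 0 at each. For the difference between the times it called 0 members and 0% of genes. An unadjusted p under 0.05 was found for 2 members over both times (Dkc1 and Gar1), as for 9.31% of genes. Groups did not overlap for 0 members at 24 h and for 5 at 48 h (Npm1, Nop58, Dkc1, Nhp2 and Gnl3), as for 9.27% and 21.3% of genes.

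Beside them stand the 80 cytosolic ribosomal protein genes read here (Rack1 and Fau included), most of whose mRNAs carry a TOP tract. Their summed reads had a short-tailed share of 1.65% to 1.84% in siCtl and 2.91% to 3.16% in siLarp1 at 24 h, and of 2.25% and 2.71% against 4.12% and 4.44% at 48 h, apart at both times. The same sum over the 9 members without Npm1 was 2.17%, 4.33% and 3.24% in siCtl and 2.59%, 5.13% and 2.66% in siLarp1 at 24 h, which overlap, and 3.49% and 2.59% against 4.60% and 5.38% at 48 h, which do not. Of the 80 genes 27 rose in this share at 24 h, 10 at 48 h and 42 over both times, out of 28, 11 and 48 genes called in all, and without siLarp1 library 22 the 28 called at 24 h became 8. The share in Npm1 was higher than in the ribosomal protein sum in 10 of 10 libraries. The difference between the members and the ribosomal protein genes in response was not tested.

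**Figure D3:**
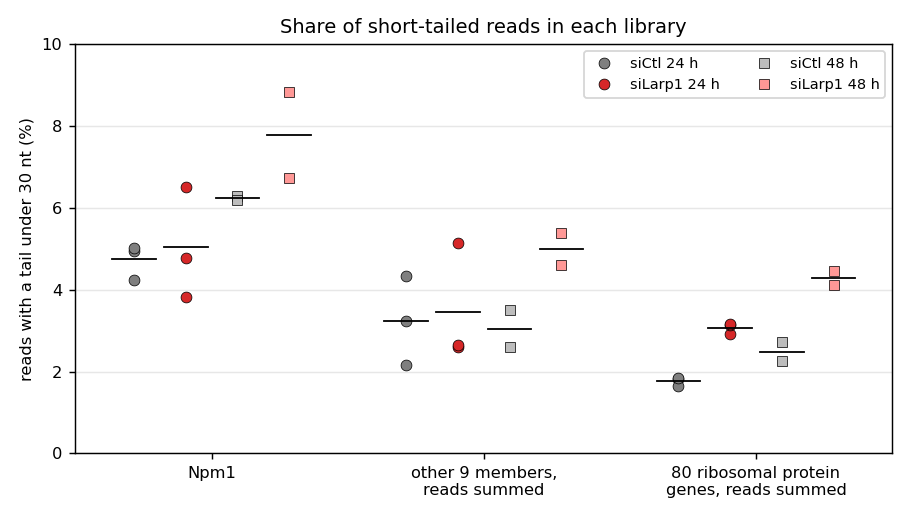
Percentage of reads with a tail under 30 nt in each library for Npm1, for the reads of the 9 other members summed, and for 80 ribosomal protein genes summed, with a bar for the group mean. The siLarp1 points of the ribosomal protein genes lie above the siCtl points at 24 h and 48 h, while those of Npm1 and of the 9 members overlap at 24 h.

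The share of tails of 30 to 90 nt, which the study names ~60-nt tails, was also not called for any member. Npm1 had 44.2%, 44.3% and 44.1% of its reads in this class in siCtl and 40.3%, 42.0% and 43.7% in siLarp1 at 24 h, and 43.7% and 47.1% against 40.7% and 44.1% at 48 h. The groups were apart at 24 h and overlapped at 48 h, and the log2 odds ratio over both times was -0.17 ± 0.06 (adjusted p = 0.476). Averaged over the 10 libraries the share ran from 27.3% ± 3.30 SD in Nop10 and 31.7% ± 8.47 in Gnl3 to 48.5% ± 12.6 in Gar1 and 48.9% ± 7.75 in Nhp2, but the order of the members changed between groups. The Gar1 share was 56.7%, 61.5% and 55.2% in siCtl and 40%, 25% and 44.4% in siLarp1 at 24 h, apart, but on 5 to 30 reads a library (log2 odds -1.204 ± 0.629, adjusted p = 0.794). The model called 0 members at 24 h, 48 h and over both times, as it did 0.23%, 0% and 0.306% of all genes, and for the difference between times 0 members and 0% of genes. An unadjusted p under 0.05 over both times was found for 1 member (Npm1) and for 7.32% of genes, and limma on the log2 odds called 0 members. Groups did not overlap for 2 members at 24 h (Npm1 and Gar1) and 3 at 48 h (Ncl, Dkc1 and Nop10), as for 11.9% and 33.9% of genes.

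Median tails differed between some of the members, and the size of this against the differences between siRNAs was not tested. Nop10 had medians of 107 to 128 nt and Gnl3 of 97.1 to 154 nt, whereas Npm1 lay between 85.2 and 98.4 nt and Nhp2 between 76.5 and 98.7 nt. The Nop10 median was above that of Npm1 in 10 of 10 libraries. Over all genes the median tail of a library was 97.1 to 104 nt. Npm1 had medians of 91.5, 91.1 and 92.9 nt in siCtl and 98.4, 92.1 and 95.4 nt in siLarp1 at 24 h, and of 90.03 and 85.22 nt against 90.6 and 88.3 nt at 48 h, which overlap at both times. Its log2 difference over both times was 0.05 ± 0.02 (limma, adjusted p = 0.658).

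For Nop58 the medians were 118, 91.5 and 101 nt in siCtl and 107, 99.3 and 107 nt in siLarp1 at 24 h, and 92.2 and 86.9 nt against 43.0 and 81.8 nt at 48 h. The lowest median of any member in any library was thus that of Nop58 in siLarp1 library 24, on 30 reads, the same reads in which its short-tailed share was highest. Its log2 difference at 48 h was -0.70 ± 0.21 (limma, adjusted p = 0.466). Ncl at 48 h was at 101 and 95.1 nt in siCtl and at 89.6 and 85.3 nt in siLarp1 (log2 -0.15 ± 0.08, adjusted p = 0.776). With limma 0 members passed at 24 h, 48 h or over both times, where 0.0471%, 0% and 0.0471% of all genes did, and for the difference between times 0 members and 0% of genes passed. An unadjusted p under 0.05 over both times was found for 2 members (Npm1 and Nop58) and for 7.3% of genes. Groups did not overlap for 0 members at 24 h and for 5 at 48 h (Ncl, Fbl, Nop58, Nop10 and Gnl3), as for 12.1% and 34.3% of genes.

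**Figure D4:**
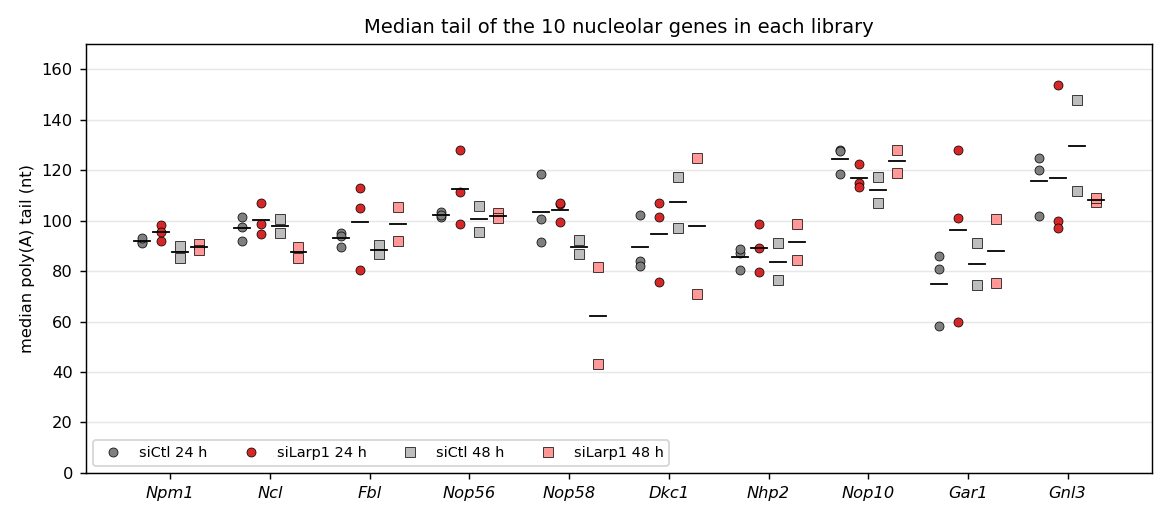
Median poly(A) tail in nt of each gene in each of the 10 libraries, with circles for 24 h, squares for 48 h, grey for siCtl, red for siLarp1 and a bar for the group mean. Nop10 lies between 107 and 128 nt, Npm1 between 85.2 and 98.4 nt, and the lowest point is Nop58 in a siLarp1 library of 48 h, at 43.0 nt.

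Reads of single molecules also show which transcript each member used. Npm1 (chr11:33152287-33163206, minus strand) was read mostly as the transcript ENSMUST00000075641.9 of 11 exons, with 77.4% to 83.7% of its reads in each library, and next as ENSMUST00000109354.9, with 11.9% to 17.1%. The members Fbl (chr7:28169710-28179269), Dkc1 (chrX:75095854-75109777) and Nop10 (chr2:112261926-112263269) each had reads on 1 transcript. The 5′ ends of reads were unequally complete: 66.5% of Npm1 reads, 17.6% of Ncl reads and 13.6% of Fbl reads on the main transcript spanned the whole coding sequence. Introns of 5 members hold 16 annotated small nucleolar RNAs, which are the guides that these proteins bind: 5 in Nop56, 4 in Nop58, 3 in Ncl, 3 in Gnl3 and 1 in Dkc1.

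Nop56 (chr2:130274430-130279313) was read as 2 main transcripts with different tails. The full mRNA ENSMUST00000103198.10 (1877 nt, 12 exons) had 559 reads with a median tail of 95.5 nt. The shorter ENSMUST00000028890.14 (946 nt, 5 exons, starting at chr2:130277157) had 128 reads with a median tail of 129 nt. Its median was the longer in 10 of 10 libraries, from 100.7 against 100.6 nt in siCtl library 21 to 164 against 85.8 nt in siCtl library 24. The medians of the shorter transcript rest on 4 to 23 reads a library, and on 7 in siCtl library 24. Whether these shorter reads are full molecules was not tested. Ncl (chr1:86344719-86359400, minus strand) ended at 2 sites in the last exon. The near site, at position 86350496, held 88.6% of reads on the main transcript with a median tail of 98.5 nt, and the far site, at 86349629, held 5.68% with 93.1 nt. The share of the far site was 0% to 9.23% in the 10 libraries, on 0 to 21 reads, with siLarp1 and siCtl overlapping at 24 h. At 48 h it was 8.18% and 8.33% in siCtl and 6.57% and 4.72% in siLarp1, apart, on 6 to 14 reads a library, and the difference was not tested.

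Other genes of ribosome assembly were counted in lists of 12 further particle and assembly factors, 49 factors of the small subunit, 64 of the large subunit and 16 of RNA polymerase I. None of those tested was called in reads, short-tailed share, 30 to 90 nt share or median tail at 24 h, at 48 h or over both times, and in reads over both times 0 of 12, 2 of 47, 5 of 62 and 0 of 12 genes tested had an unadjusted p under 0.05, beside 6.18% of all genes. Their median log2 difference in reads over both times was 0.08, 0.04, 0.01 and 0.02, beside 0.07 for the 10 members and 0.04 for all genes. The most read of each list were Snu13 (a box C/D core protein; 441 to 607 RPM over the libraries) and Ruvbl2 (an assembly ATPase; 222 to 384), Emg1 (an 18S methyltransferase; 215 to 389) and Pno1 (146 to 311), Pa2g4 (419 to 650) and Nsa2 (274 to 442), and Polr1d (a polymerase I and III subunit; 302 to 442) and Mybbp1a (284 to 580). The largest log2 difference among these at a single time was that of Mybbp1a at 48 h, 0.39 ± 0.22 (limma, adjusted p = 0.945).

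Reads left out by the quality tag set Ncl and Gar1 apart from the other members. Reads in which the tail caller found no tail region made up 23.1% of all Ncl reads (720 of 3113, Wilson interval 21.7% to 24.6%) and 23.1% of Gar1 reads (59 of 255, 18.4% to 28.7%), beside 0.943% over all genes. The share was 6.84% in Nop58 and 0.319% to 2.03% in the other 7 members. In Ncl it was 17.2%, 31.9% and 21.1% in siCtl and 20.4%, 26.8% and 18.9% in siLarp1 at 24 h, and 19.02% and 21.40% against 21.6% and 26.3% at 48 h. The groups overlapped at 24 h and lay just apart at 48 h. Of 3088 genes with at least 100 reads, 26 had a share of at least 10%, and Gar1 and Ncl ranked 6 and 7.

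On the transcript with most reads, 577 of the Ncl and 50 of the Gar1 reads had no tail region. They ended inside the coding sequence in 97.7% of cases in Ncl and 98.0% in Gar1. In Ncl 324 of the 577 ends (56.2%) fell on positions 2022 to 2141. Ncl reads with a tail ended most often at position 2425 of the 8202 annotated nt. In Gar1 42 of the 50 ends (84.0%) fell on positions 728 to 847, and the common 3′ end was at 1267 of 1271 nt. The 30 bases with most ends and the bases that follow them are shown for both genes because the ends gather there, with runs of at least 2 G in capitals.
Ncl, most ends: agaaattgacGGaaacaaagttaccttGGa
Ncl, next 30: ctGGGccaaacctaaGGGtgaaGGtGGctt
Ncl, following 30: tGGtGGtcgaGGtGGaGGcagaGGaGGttt
Gar1, most ends: agctgctgccgctgcagaGGtttctgcctc
Gar1, next 30: gtcctcctGGtgagaaaGGacctcccagag
Gar1, following 30: gtGGcGGcGGtGGcGGcaGGGGaGGtcgag

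The Ncl windows lie in exon 13 (chr1:86350940-86350969, 86350910-86350939 and 86350880-86350909, minus strand), and the Gar1 windows in exon 5 (chr3:129826926-129826955, 129826896-129826925 and 129826866-129826895, minus strand). The 3 windows hold 7, 11 and 16 G in Ncl and 9, 9 and 19 in Gar1, beside 13, 7 and 5 A in Ncl and 3, 7 and 3 A in Gar1. In Ncl the window with most ends thus held more A than G. Both proteins are known to end in a glycine- and arginine-rich domain. Whether the bases or this domain bear on the read ends was not tested. Reads with a tail began in the same stretch as well: 7.83% of the Ncl reads and 41.8% of the Gar1 reads that passed had their 5′ start at positions 2022 to 2141 and 728 to 847, which are 4.95% and 9.47% of the length up to the common 3′ end.

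**Figure D5:**
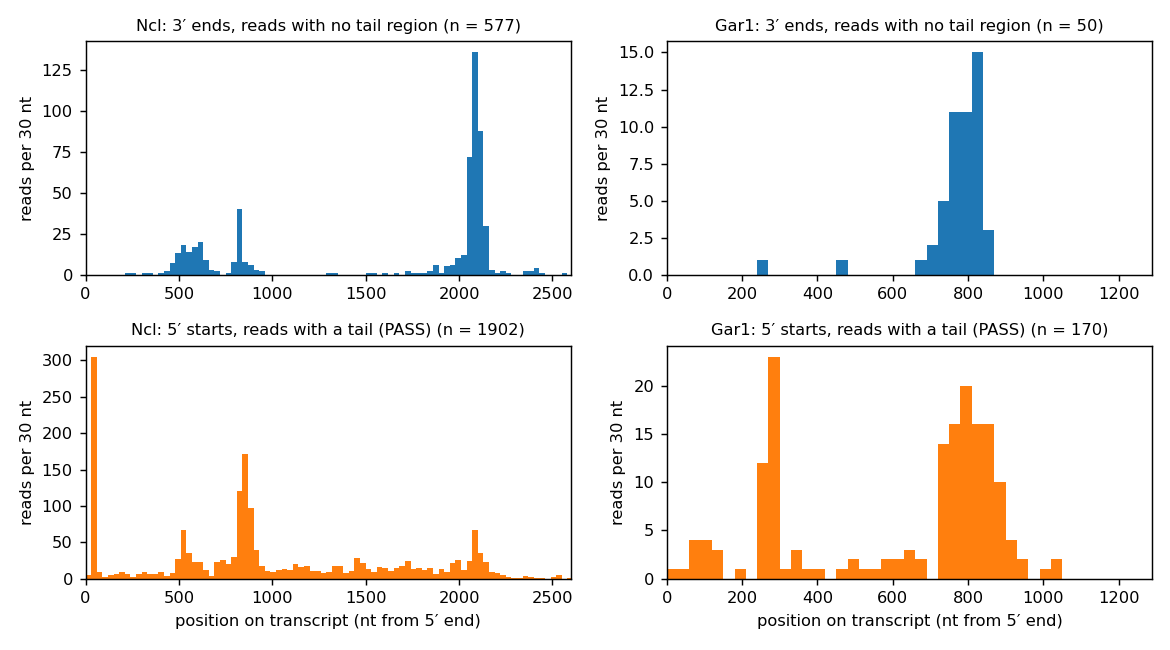
Number of reads per 30 nt along the transcript of Ncl (left) and Gar1 (right), for the 3′ ends of reads with no tail region (top, blue) and the 5′ starts of reads with a tail (bottom, orange). The upper panels peak near positions 2067 to 2096 in Ncl and 773 to 802 in Gar1, and the lower panels have starts at the same positions. In Ncl the starts are more numerous near position 840 than there. Some Ncl ends with no tail region gather near 810 (40 in 30 nt) and over positions 480 to 630 (13 to 20 in each 30 nt).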

How the data were processed

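RNA of P19 cells was read by Nanopore direct RNA sequencing in 10 libraries. The authors called bases with Guppy, separated barcodes with Deeplexicon, aligned reads to GENCODE vM17 transcripts of mm10 with minimap2 2.20 and estimated tails with Nanopolish. The deposited table holds 1 line per alignment, with the tail length in nt. It also gives a barcode confidence, deposited as a fraction of 0 to 1, and Minimap2's score of mapping quality, and the deposited lines are unfiltered on both. Libraries were grouped by siRNA and time. Their numbers (19, 21, 22, 24 and 25) match no labelled replicate, so library and labelled replicate could not be linked. Cultures were biological replicates per the study's methods.

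Kept reads had the mRNA class and the PASS tag, with no mitochondrial gene or pseudogene, and a read counted once for a gene. From 2042110 kept alignments, reads were tallied per gene and library and scaled to RPM (reads per 1000000 kept reads of the library). R 4.3.3 with limma 3.58.1 fitted all 10 libraries in 4 groups: voom for reads (at least 30 in all), a quasi-binomial model with moderated dispersions for tail shares (at least 100), and limma on log2 median tails (at least 5 a library). Unless called unadjusted, p-values were adjusted by Benjamini-Hochberg over all genes tested, with 0.05 as threshold. Wilson intervals of 95% and limits at 0 (3 reads) cover counting error only. The 95% intervals of log2 differences and ratios in reads come from the SE of the limma fit, which includes the spread between libraries. Models were tested on simulated data. The windows of sequence were read from the GRCm38 reference with Python 3.11.15.

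All 10 members and Larp1 are named, as are the genes called in the related lists or else the 2 with most reads. The members and lists were chosen with earlier results of these data known.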

Additional observations from a re-analysis of the deposited data

Results flagged for a closer look

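Reads in which no tail region was found lie outside the comparisons of the report, since the quality tag removed them. They were 23.1% of Ncl reads (720 of 3113; 17.2% to 31.9% in the 10 libraries) and 23.1% of Gar1 reads (59 of 255; 7.14% to 35.7%), beside 0.943% over all genes. Both shares stood above that level in siCtl libraries too, at 17.2% to 31.9% for Ncl and 7.14% to 31.4% for Gar1. In Npm1 the share was 0.189% to 1.56%. The shares of Ncl and Gar1 were not tested between siRNAs.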

How the results depend on the processing

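Across 24 alternatives, 10 of which left out 1 library each, 1938 of 2072 values of the members kept their direction and side of the threshold, 120 that were not called changed sign, and 0 called values reversed. All 14 changes of a call were in Npm1 reads: 10 lost the call over both times (log2 -0.20 to -0.15) and 4 gained it at 24 h. With the library number as a replicate block Npm1 had log2 -0.19 at 24 h (adjusted p = 2.28e-07) and 1 member was called. The labels' numbers do not match the libraries', and deviations from group means correlated between same-numbered libraries at 0.04, 0.25 and 0.23 at 24 h and 0.10 at 48 h over 964 genes, each best with its own number, which is a hint from the data and not from the design. Since 1 of these was under 0.1 and no label ties the libraries, they were not taken as pairs. Between same-numbered libraries the Npm1 share of 30 to 90 nt was lower in siLarp1 in 5 of 5 and its median tail longer in 5 of 5. With the block these had an adjusted p of 0.607 and 0.664 over both times (quasi-binomial model and limma). Both directions also held in 5 of 5 for Gar1, on 5 to 30 reads a library. Reads of Npm1 and of Nop58 were lower in siLarp1 in 5 of 5, as was the short-tailed share of Fbl. How many of all genes go 1 way in 5 of 5 was not counted.

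Counts of genes called moved most. In reads at 24 h (0 called) there were 3 with all quality tags, 17 with the block, 2 with a mapping quality of at least 20 and 21 with no read minimum, and 1 member with all tags, the block or no minimum. At 48 h (2 called) there were 5 with all tags, 0 with a barcode confidence of at least 0.9, 13 with the block, 1 with the mapping quality, 5 with median-of-ratios scaling, 23 with no minimum, 0 in separate fits and 1 with the most read transcript alone. Over both times (9 called) there were 28 with the block, 3 with the mapping quality and 35 with no minimum, and 0 members with the barcode confidence or the mapping quality. For tails under 30 nt at 24 h (28 called) there were 18 with at least 30 reads, 18 with the barcode confidence, 15 with the block, 4 with limma on log2 odds, 13 with the mapping quality and 2 with a limit of 20 nt. At 48 h (11 called) these were 18 with the barcode confidence, 7 with the block, 1 with limma, 5 with the mapping quality, 27 in separate fits and 1 with 20 nt, and over both times (48 called) 17 with limma, 28 with the mapping quality and 13 with 20 nt. For 30 to 90 nt there was 1 at 48 h with a class of 40 to 80 nt (0 called), and 4 over both times with the mapping quality (8 called). For median tails at 24 h (1 called) there were 0 with the barcode confidence, equal weights, the mapping quality or separate fits, 6 with the block and 5 with the mean of log2 tails, at 48 h (0 called) 3 with the block, and over both times (1 called) 0 with equal weights, 7 with the block and 13 with the mean. The summed members' difference under 30 nt at 48 h, 1.55 percentage points, was 0.707 with the most read transcripts and 0.566 with 20 nt, and that of 30 to 90 nt at 24 h, -2.25, was -1.67 with the barcode confidence and -3.61 with 40 to 80 nt. The causes were not tested.

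Without 1 library, the genes called ranged in reads from 0 to 8 at 24 h, 0 to 6 at 48 h and 3 to 13 over both times, and the members called from 0 to 1 at 24 h and 0 to 1 over both times. They ranged for tails under 30 nt from 8 to 28, 1 to 11 and 25 to 52, for 30 to 90 nt from 3 to 13, 0 to 2 and 0 to 12, and for median tails from 0 to 4, 0 to 1 and 0 to 5. The largest losses followed siCtl library 25 (3 in reads and 25 in short tails over both times) and siLarp1 library 22 (8 in short tails at 24 h). A library that left its arm with 1 other was assumed to vary like the rest. Depth limits the members other than Npm1, from Ncl with 2115 reads in all down to Gar1 with 5 to 30 reads a library.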
